A study of Bos taurus with 48 samples.

Results

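Gene expression in subcutaneous adipose tissue was compared between Norwegian Red heifers fed a high-protein (HP) and a low-protein (LP) diet, over both dietary energy levels. All samples taken under the experimental diets at 12 months of age entered the comparison, which gave 24 of the 48 samples of the series, 12 from HP and 12 from LP heifers. Each heifer received 1 of 4 diets from 3 months of age: LPLE, LPHE, HPLE or HPHE, in which LE stands for low and HE for high energy. The samples of each diet came from 6 heifers, 3 of the high milk-yield genetic group (HMY) and 3 of the low clinical mastitis genetic group (LCM). Protein content was changed through the concentrate and also moved with the roughage that set the energy level, and the LP concentrate held more starch, so a difference between HP and LP is one between whole rations. Biopsies were taken beside the tail base, and the RNA samples that were sequenced had been selected for quality. The other 24 samples came from the same heifers in month 7 of gestation, after all of them had moved to 1 common low-energy feed. Heifers are named here by their diet and the number in their label, such as LPLE14.

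White adipose tissue stores triacylglycerol and releases hormones. It reads the nutritional state through receptors for insulin, growth hormone, prolactin and thyroid hormone. Prolactin acts through its receptor PRLR, a cytokine receptor that signals through JAK2 and STAT5, the pathway that growth hormone also uses. Thyroid hormone that enters a cell can be held by μ-crystallin (CRYM), an NADPH-dependent binding protein of the cytosol. Amino acid supply is followed in many cell types by transporters, by the genes of the amino acid response and by the breakdown of branched-chain amino acids, which in adipocytes feeds fatty acid synthesis.

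The reads assigned to genes numbered from 14815595 to 59809633 in a heifer, the median being 30754243.5 in HP and 33937632 in LP heifers, and no difference between the log2 totals of HP and LP heifers was detected (0.04, exact permutation test within energy and genetic group, two-sided, p = 0.867). All expression levels below are in CPM, the counts of a gene relative to the TMM-scaled total of the heifer. The adipocyte genes CIDEC, a lipid droplet protein, and LEP, which encodes leptin, summed to 858 CPM or more in every heifer. The 7 skeletal muscle markers with an identifier summed to 0.753 to 145 CPM in HP heifers and to 0.932 to 70.9 CPM in LP heifers, and 6 HP and 3 LP heifers exceeded 10 CPM (exact permutation test of the log2 sums, p = 0.358). In whole tissue, fewer cells of a type and less RNA per cell cannot be told apart. Gene symbols were available for 1006 of the 13339 genes tested, most of them from a list of genes chosen on these samples for another contrast, and the other genes carry an Ensembl identifier alone.

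Few genes differed between HP and LP heifers. Of the 13339 genes that reached 2 CPM in 3 or more heifers, 7 differed between HP and LP heifers at a false discovery rate (FDR) under 0.1 (0.0525% of the genes, likelihood ratio test of edgeR with energy level and genetic group in the model). CRYM, PRLR, WFIKKN2 and ENSBTAG00000001150 were lower in HP heifers (0.03%), and LY6E, ENSBTAG00000010129 and ENSBTAG00000008129 were higher (0.0225%). At an unadjusted p under 0.05 stood 244 genes (1.83%). In the same model and the same heifers, 1501 genes (11.3%) were called for energy level. The 95% interval of the HP-LP difference lay within 1 log2 unit of 0 on both sides for 12704 genes (95.2%).

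The calls depended on the test and on the estimate of the dispersions. With the prior weight of the dispersions estimated from the data, a fit seen before the one used here was chosen, 2 genes were called, CRYM and PRLR, and the other 5 calls were lost. The quasi-likelihood F test of edgeR, which adds the uncertainty of the dispersion of each gene, called 0 genes, with 233 at an unadjusted p under 0.05 and a lowest FDR of 0.504, that of PRLR. DESeq2 called 5 genes, which included CRYM, PRLR, WFIKKN2 and LY6E. The 4 genes called as lower in HP passed the filter on low values only through LP heifers: no HP heifer reached 2 CPM for any of them. Such genes had to lean towards LP, and 38 genes of this kind were tested. By the likelihood ratio test, 19 of the 38 (50%) had an unadjusted p under 0.05, against 1.83% of all genes, and 4 were called. All 7 genes were also called with no filter on low values.

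**Figure D1:**
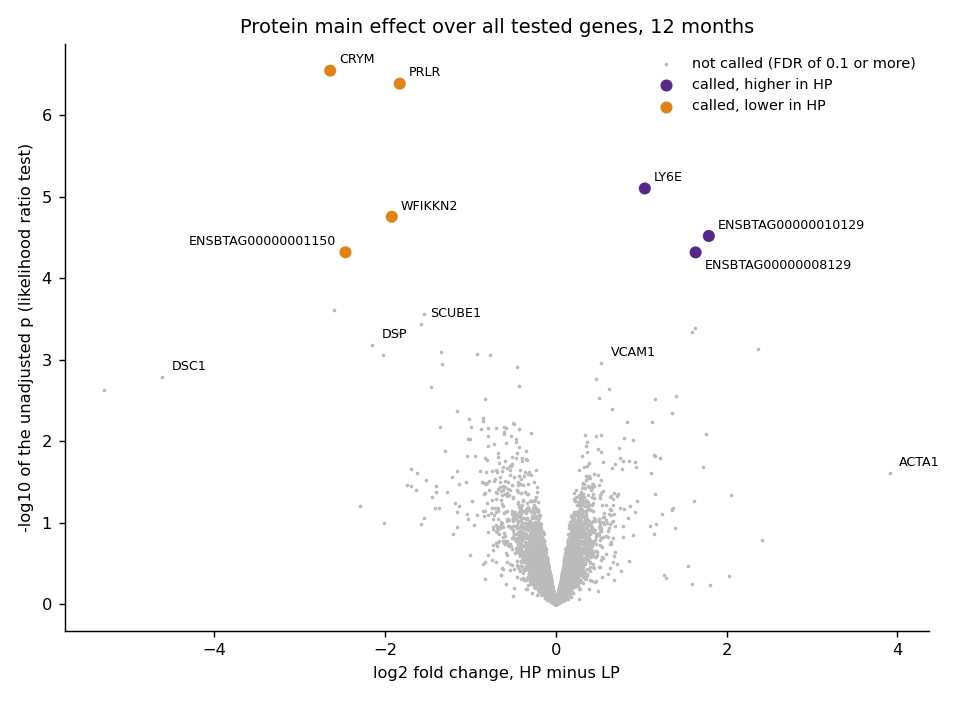
Each point is 1 of the 13339 tested genes, with the log2 fold change HP minus LP on the horizontal axis and the -log10 of the unadjusted p on the vertical axis. The 7 genes with an FDR under 0.1 are coloured, orange for the 4 lower and purple for the 3 higher in HP heifers; CRYM and PRLR stand above all others.

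CRYM showed the largest difference among the called genes with a symbol. In HP heifers its level lay between 0.666 and 1.85 CPM with a median of 0.925, and in LP heifers between 0.426 and 49.7 CPM with a median of 3.02. All 12 HP heifers fell below the LP median, 7 LP heifers exceeded the highest HP heifer, and 2 LP heifers lay below the lowest HP heifer, so the groups overlapped. The highest level, 49.7 CPM, was that of LPLE14, followed by LPLE18 with 11.6 CPM and LPHE16 with 8.13 CPM. The log2 fold change HP minus LP was -2.64 ± 0.51 (SE, n = 12 and 12), a 6.24-fold lower level (95% interval of the log2 fold change -3.65 to -1.63, edgeR likelihood ratio test, FDR = 0.00274). Without LPLE14 the difference was 3.95-fold (FDR = 0.0253). On mean log2(CPM + 0.5), where each heifer weighs the same, the difference was -1.42 (exact permutation test, p = 0.0091).

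Levels of CRYM in the HPHE heifers were nearly equal, from 0.777 to 0.990 CPM (mean 0.891 ± 0.0823, SD, n = 6). The HPLE heifers followed with 1.10 ± 0.431 CPM, the LPHE heifers with 3.36 ± 3.39 CPM and the LPLE heifers with 12.2 ± 18.8 CPM. In both LP diets the SD exceeded the mean, and the difference between HP and LP was carried by some LP heifers rather than by all.

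PRLR had the smallest exact permutation p of the called genes. Its level ran from 0.208 to 1.58 CPM in HP heifers (median 0.791) and from 0.424 to 7.65 CPM in LP heifers (median 2.07). Of the LP heifers, 9 exceeded the highest HP heifer, and 4 HP heifers lay below the lowest LP heifer. At least 7 LP heifers above every HP heifer were found for 21 genes in all (0.157%), and no gene of the 13339 had HP and LP heifers without overlap (0%). PRLR passed the filter on low values only through LP heifers, which favours LP heifers above every HP heifer. Its place among the 21 genes is therefore no separate evidence. The log2 fold change was -1.83 ± 0.36 (SE), or 3.55-fold lower in HP (95% interval 2.17 to 5.79-fold, FDR = 0.00274), and the exact permutation test gave p = 0.000475. That p was not small enough for a call over all genes: the permutation test, whose smallest p is 1.25e-05, called 0 genes and placed 218 (1.63%) at an unadjusted p under 0.05.

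Over the diets the level of PRLR was stepped. It was 4.35 ± 2.55 CPM in LPLE, 1.41 ± 0.901 in LPHE, 1.02 ± 0.463 in HPLE and 0.530 ± 0.361 in HPHE heifers (mean ± SD, n = 6 each). The 3 highest heifers were LPLE18 (7.65 CPM), LPLE22 (6.77 CPM) and LPLE14 (5.13 CPM). The ranges of the middle diets overlapped, with 0.424 to 2.48 CPM in LPHE and 0.208 to 1.58 CPM in HPLE heifers. Behind the lowest CPM values stood few reads, such as 4 in HPLE7 and 5 in HPHE19, against 158 in LPLE18.

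WFIKKN2 encodes a secreted protein that binds myostatin and GDF11, growth factors of the TGF-β family. Its level ran from 0.0470 to 1.24 CPM in HP heifers (median 0.451) and from 0.0808 to 7.42 CPM in LP heifers (median 1.28), and 6 LP heifers exceeded every HP heifer. LPLE14 and LPLE18 were again highest, with 7.42 and 7.36 CPM. The log2 fold change was -1.92 ± 0.45 (SE, FDR = 0.0588), and the call was lost when any 1 of 10 heifers was left out, with the highest FDR, 0.616, without LPHE12. ENSBTAG00000001150 was near 0 in most heifers: it lay at 0.526 CPM or less in all HP heifers and in 7 LP heifers, and reached 3.78 CPM in LPLE18, 3.38 in LPLE10 and 2.44 in LPLE22 (log2 fold change -2.46 ± 0.61, FDR = 0.0920). Only those 3 heifers carried it past the filter, and it was not tested when 1 of them was left out. In the other 21 fits that left out 1 heifer it was called in 8, and its highest FDR was 0.748, without LPHE3.

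LY6E, a lipid-anchored protein of the Ly6 family that interferon induces, was the called gene with a symbol that was higher in HP. Its level was 21.7 to 124.5 CPM in HP heifers (median 51.3) and 15.4 to 56.0 CPM in LP heifers (median 30.7). Of the HP heifers, 5 exceeded every LP heifer, and 3 LP heifers lay below every HP heifer. The log2 fold change was 1.04 ± 0.23 (SE), or 2.06-fold (FDR = 0.0352, exact permutation p = 0.00383). The diets lay in the reverse order of PRLR, with 83.2 ± 39.8 CPM in HPHE, 48.6 ± 33.3 in HPLE, 43.9 ± 9.66 in LPHE and 21.6 ± 5.91 in LPLE heifers. The range of the LPHE heifers lay inside that of the HPLE heifers. The call was lost without HPLE7 (FDR = 0.191), HPHE11 (0.130), HPHE19 (0.128), LPHE16 (0.117) or LPLE18 (0.109).

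Both other genes that were higher in HP have no symbol in the sources used here. ENSBTAG00000010129 was at 0.218 to 8.15 CPM in HP heifers (median 2.78) and at 0.188 to 2.20 CPM in LP heifers (median 1.12), with 6 HP heifers above every LP heifer (log2 fold change 1.79 ± 0.43, SE, FDR = 0.0810). It reached 2 CPM in 7 HP and 2 LP heifers. LP heifers alone would not have carried it past the filter on low values, which favours a lean towards HP. ENSBTAG00000008129 was at 1.92 to 57.9 CPM in HP heifers (median 24.1) and at 1.62 to 13.5 CPM in LP heifers (median 7.70), with 9 HP heifers above every LP heifer (log2 fold change 1.64 ± 0.40, SE, FDR = 0.0920). In 9 of the 24 fits that left out 1 heifer each was called, and the highest FDR was 0.501 for ENSBTAG00000010129, without HPLE7, and 0.550 for ENSBTAG00000008129, without HPHE11.

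**Figure D2:**
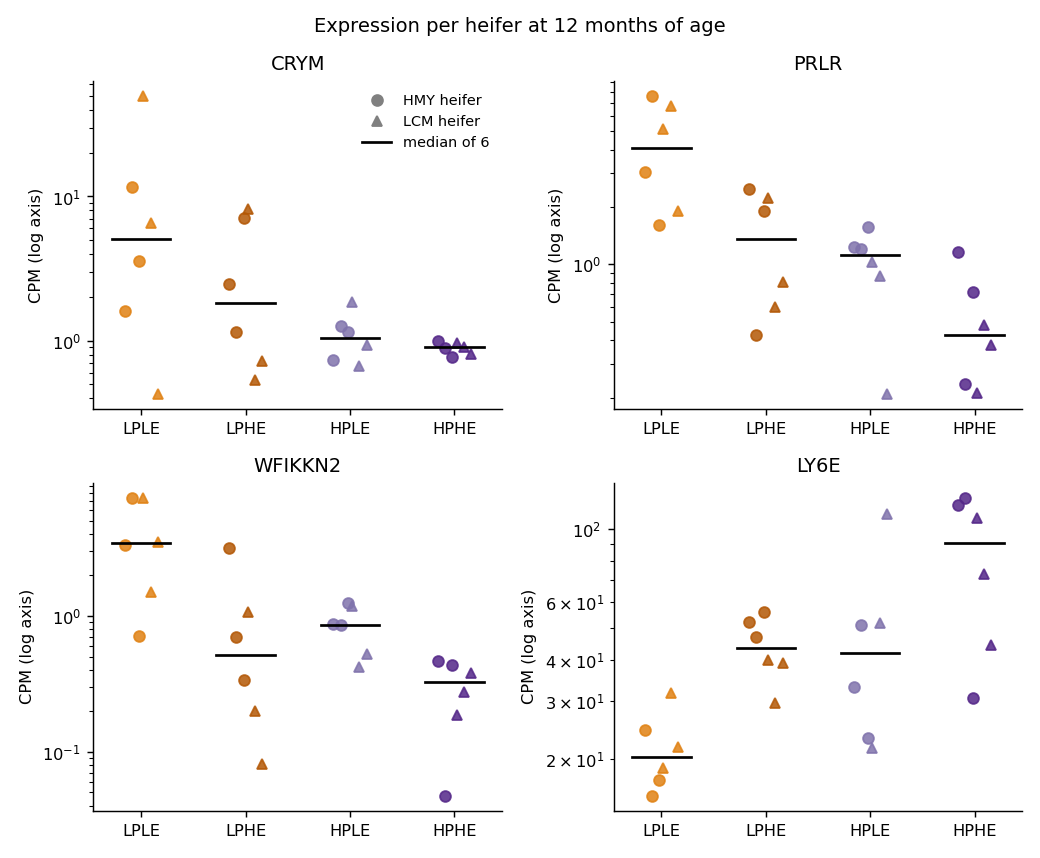
CPM of CRYM, PRLR, WFIKKN2 and LY6E (vertical log axes) in each of the 24 heifers at 12 months by diet (6 heifers each, circles HMY, triangles LCM), with the median of a diet as a bar. LPLE heifers hold the highest CRYM, PRLR and WFIKKN2 levels and the lowest LY6E level, and every gene shows overlap between HP and LP heifers.

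Among the 20 genes with the smallest p, 13 were lower and 7 higher in HP heifers, and 8 had a symbol. Those past the first 7 did not pass the test. SCUBE1, a glycoprotein of the cell surface, had -1.58 ± 0.44 as log2 fold change HP minus LP (SE, FDR = 0.483), with 7 LP heifers above every HP heifer. DSP, the desmosome protein desmoplakin, had -2.15 ± 0.63 (FDR = 0.622), and PPP2R2B, a regulatory subunit of protein phosphatase 2A, had -1.35 ± 0.40 (FDR = 0.622). VCAM1, an adhesion molecule of activated endothelium, had 0.53 ± 0.16 (FDR = 0.725), with 123 to 323 CPM in HP and 62.8 to 252 CPM in LP heifers, and 11 of 12 HP heifers above the LP median. Genes chosen for naming after their values were seen were LBP, which binds bacterial lipopolysaccharide, with 0.47 ± 0.15 (FDR = 0.955), and NPY1R, a receptor of neuropeptide Y, with -1.46 ± 0.48 (FDR = 0.9998). The named genes of this paragraph and the 7 called genes kept their direction under each alternative in which they were tested.

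The protein difference was next read within each energy level, with 1 mean per diet. At high energy (HPHE-LPHE) 3 genes were called (0.0225%), DSP, ACTA1 and 1 gene without a symbol, and at low energy (HPLE-LPLE) 3 genes were called (0.0225%), CRYM, PRLR and 1 gene without a symbol. For CRYM the log2 fold change was -1.93 ± 0.68 at high and -3.36 ± 0.73 at low energy (SE, FDR = 0.813 and 0.0493). For PRLR it was -1.48 ± 0.51 and -2.16 ± 0.50 (FDR = 0.700 and 0.0864). The difference between the energy levels was not significant for either gene (edgeR likelihood ratio test of the interaction, unadjusted p = 0.134 for CRYM and 0.333 for PRLR). All 7 called genes had the same sign at both energy levels, with an interval that excluded 0 at each, and 0 of the 7 had an interaction at an unadjusted p under 0.05. The 7 were chosen by the difference over both levels in these same heifers, which favours such agreement. It is therefore no separate evidence.

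DSP showed another pattern. Its log2 fold change was -3.71 ± 0.77 at high energy (FDR = 0.00925) and -0.59 ± 0.69 at low energy, a difference with an unadjusted p of 0.00183 and an FDR of 0.469 over all genes. LPHE heifers ranged from 0.188 to 66.9 CPM with a median of 4.61, and HPHE heifers from 0.157 to 3.44 CPM with a median of 1.12. The 2 highest were LPHE24 with 66.9 CPM and LPHE3 with 30.3 CPM, while the other LPHE heifers lay at 5.87 CPM or less. Of 2 epidermal and epithelial markers with an identifier DSP is itself 1, and the other, KRT19, a keratin, had 2.01 to 46.8 CPM in HP and 3.45 to 74.6 CPM in LP heifers (log2 fold change 0.53 ± 0.37, FDR = 0.9998). The part of epithelial cells in the DSP values was not tested.

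ACTA1, the actin of skeletal muscle fibres, had a log2 fold change of 7.75 ± 1.64 at high energy (FDR = 0.0107) and -0.05 ± 1.32 at low energy. LPHE heifers all lay at 0.162 CPM or less, whereas HPHE15 and HPHE11 stood at 48.6 and 46.3 CPM and the other HPHE heifers at 6.09 CPM or less. Over both energy levels the log2 fold change was 3.91 ± 1.74 (FDR = 0.9998), and the exact permutation test gave p = 0.336. HPHE11 had the highest sum of skeletal muscle markers of all heifers, 145 CPM, and HPHE15 a sum of 50.6 CPM. ACTA1 is itself among these markers and made up most of the sum of HPHE15, so the sums are no separate evidence. HPHE15 had the highest sum of smooth muscle and pericyte markers, 6836 CPM.

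**Figure D3:**
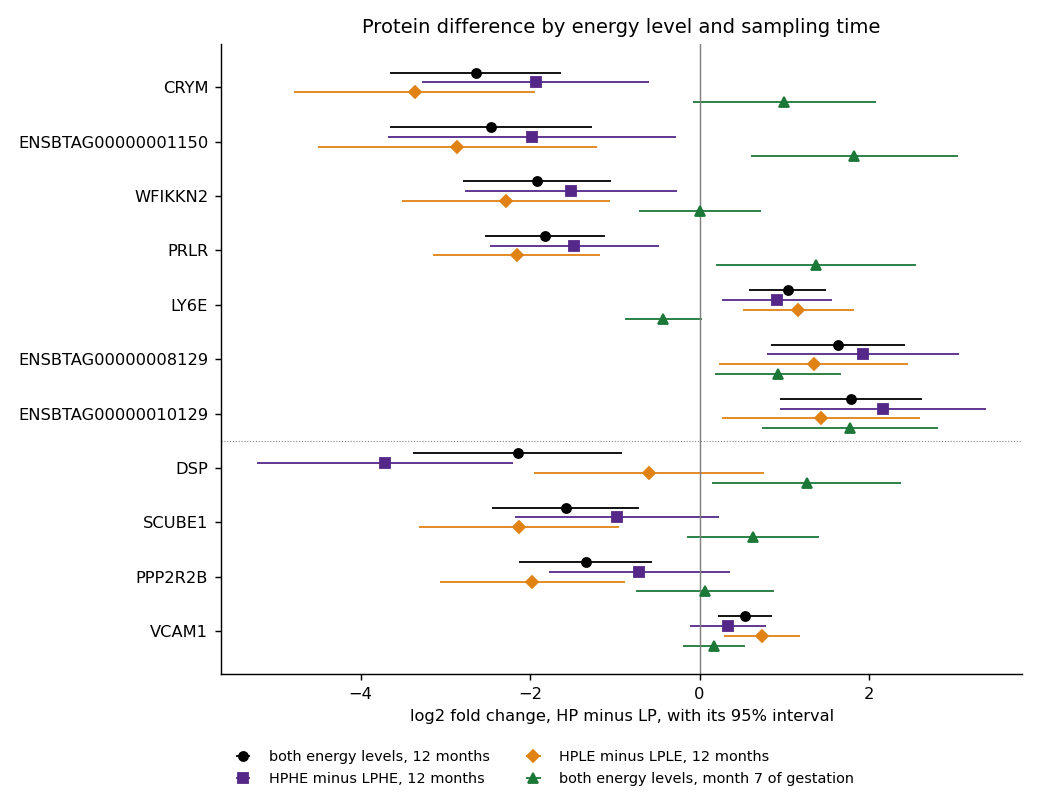
Log2 fold change HP minus LP (horizontal axis, points) with its 95% interval (bars) for the 7 called genes, above the dotted line, and 4 genes that were not called, below it. Black circles give both energy levels together at 12 months, purple squares HPHE-LPHE, orange diamonds HPLE-LPLE and green triangles both energy levels in month 7 of gestation. The squares and diamonds of each called gene lie on the same side of 0, and the triangles of CRYM, PRLR, LY6E and ENSBTAG00000001150 on the other side. Called genes were chosen by both levels together, which favours the same side for squares and diamonds.

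Energy level was a term of the same model, so its difference can be set beside that of protein for the same genes in the same heifers. Of the 7 genes 4 were also called for energy, and 11.3% of all genes were. The shares are not comparable, because the filter on low values shaped some of the 4. PRLR, WFIKKN2 and ENSBTAG00000001150 passed it only through LP heifers. Those of ENSBTAG00000001150 were all LPLE heifers, so it had to lean towards LE as well. PRLR was lower in HE heifers (HE minus LE, log2 fold change -1.33 ± 0.36, SE, FDR = 0.00808), as were WFIKKN2 (-1.86 ± 0.45, FDR = 0.00247) and ENSBTAG00000001150 (-2.15 ± 0.60, FDR = 0.0121). LY6E was higher in HE heifers (0.91 ± 0.24, FDR = 0.00539). CRYM had a log2 fold change of -1.01 ± 0.50 for energy and did not pass (FDR = 0.216). The genes higher in HP without a symbol had energy differences of -0.80 ± 0.42 (ENSBTAG00000010129) and 0.06 ± 0.40 (ENSBTAG00000008129), which did not pass either. None of the 7 was called for genetic group.

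In month 7 of gestation, when the same heifers shared 1 feed, HP and LP heifers were compared by the same model. Of 13403 genes tested, 11 were called (0.0821%) and 0 of them belonged to the 7 of 12 months. The quasi-likelihood F test called 1 of the 13403. PRLR ranged from 0.102 to 22.7 CPM in heifers that had been fed HP (median 2.53) and from 0.150 to 5.98 CPM in those that had been fed LP (median 2.15), with a log2 fold change of 1.37 ± 0.60 (SE, unadjusted p = 0.0228, FDR = 0.9999). CRYM ranged from 0.537 to 65.3 CPM and from 1.14 to 25.3 CPM (log2 fold change 1.001 ± 0.55, FDR = 0.9999). LPLE14, the highest heifer for CRYM at 12 months, was again the highest LP heifer with 25.3 CPM. LY6E ranged from 4.15 to 12.8 CPM and from 2.79 to 20.7 CPM, with a log2 fold change of -0.43 ± 0.23 (FDR = 0.9999). WFIKKN2 had 0.01 ± 0.37. For 5 of the 7 genes the sign was opposite to that at 12 months, but the value of WFIKKN2, 1 of the 5, lay next to 0. ENSBTAG00000010129 (1.78 ± 0.53, FDR = 0.306) and ENSBTAG00000008129 (0.93 ± 0.38, FDR = 0.944) kept their sign. The difference between the sampling times was not tested.

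Lists of genes for amino acid, lipid, glucose and hormone pathways were read for their members with an identifier, which were mostly genes chosen on these samples for energy. Apart from PRLR and CRYM, no member of any list was called. All tested genes together had a median log2 fold change of 0.005, 0.03% of them were called as lower in HP and 0.0225% as higher. Of the 16 genes of branched-chain amino acid breakdown, 16 had a positive log2 fold change, but a small one, from 0.02 for BCKDHA, a subunit of the branched-chain keto acid dehydrogenase, to 0.23 for ECHS1, an enoyl-CoA hydratase (median 0.09), and 0 had an unadjusted p under 0.05. Genes of the amino acid response showed 0.09 ± 0.11 for ASNS, the asparagine synthetase, -0.16 ± 0.22 for PSAT1, an enzyme of serine synthesis, and 0.35 ± 0.16 for the lipoprotein receptor VLDLR (FDR = 0.9998). Of the amino acid transporters SLC7A10 had -0.95 ± 0.39 (unadjusted p = 0.0153, FDR = 0.9998) and SLC7A8 0.23 ± 0.31. Among 10 genes of nitrogen and other amino acid metabolism, the values ran from -0.86 ± 0.87 for IDO1, which degrades tryptophan, to 0.72 ± 0.36 for HPD, which degrades tyrosine.

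Of 14 genes of fatty acid and triacylglycerol synthesis 12 had a positive log2 fold change, with a median of 0.15. ACACA, the acetyl-CoA carboxylase of the first committed step, had 0.37 ± 0.19 (unadjusted p = 0.0551, FDR = 0.9998) at 739 to 3112 CPM in HP and 457 to 3377 CPM in LP heifers, and FADS2, a fatty acid desaturase, had the lowest value with -0.26 ± 0.20. FASN, the fatty acid synthase, had 0.22 ± 0.17, and LEP 0.38 ± 0.25. The 60 genes of the electron transport chain had a median of 0.02, and 19 genes of glucose use one of 0.04. The 17 glutathione and antioxidant genes had a median of 0.02. The 6 cholesterol genes had a median of 0.01 and 2 genes of lipolysis one of 0.02, and both of these turned negative, to -0.02 and -0.004, when counts were scaled by library size alone.

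Of 8 extracellular matrix genes 8 had a negative log2 fold change, with a median of -0.27. COL1A1, which encodes a chain of type I collagen, had -0.45 ± 0.22 (unadjusted p = 0.0398, FDR = 0.9998), COL1A2 had -0.39 ± 0.20, and ELN, which encodes elastin, had -0.64 ± 0.40. The other genes of growth hormone, insulin and IGF signalling beside PRLR were CISH, which STAT5 induces, with -0.28 ± 0.20, IGFBP6, a binding protein of IGF2, with -0.25 ± 0.17, IGF2 with -0.07 ± 0.15, and the insulin receptor substrate IRS1 with -0.01 ± 0.15. In the list of thyroid hormone handling, THRSP, which thyroid hormone induces in fat, had 0.08 ± 0.22 beside the -2.64 of CRYM.

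**Figure D4:**
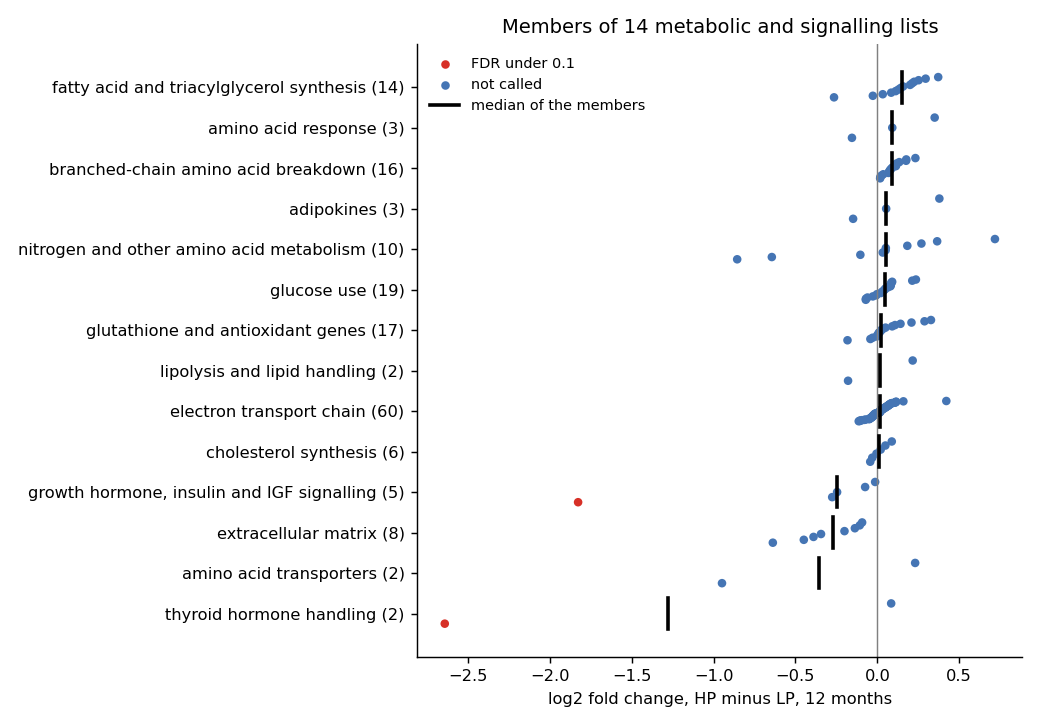
Log2 fold change HP minus LP at 12 months (horizontal axis) of the members of 14 lists, with the number of members in parentheses, 1 point per gene and a black bar at the median of each list. PRLR and CRYM, in red, are the only called members. The medians of the 3 lists with over 16 members lie within 0.05 of 0. The median is 0.09 for the 16 branched-chain genes, 0.15 for the 14 fatty acid genes and -0.27 for the 8 matrix genes.

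Skeletal muscle markers moved with some heifers, and 9 of the 24 heifers exceeded 10 CPM in their sum, 6 HP and 3 LP. Of these, HPLE1 and HPLE13 lay just over the cut, at 10.7 and 10.5 CPM, and HPHE15 passed it mostly by ACTA1. When HPLE13 alone was left out 15 genes were called, and 14 when HPHE15 alone was left out. Without all 9 heifers, 95 genes (0.728% of 13043) were called, 82 of them lower in HP (0.629%), and 5 of the 7 genes were among them. This fit compared 3 HPLE and 3 HPHE heifers with 3 LPLE and 6 LPHE heifers, and the quasi-likelihood F test called 0 genes in it, with 802 at an unadjusted p under 0.05 and a lowest FDR of 0.114. In it the log2 fold change of PRLR was -2.34 ± 0.48 (SE, FDR = 0.00113), that of CRYM -2.25 ± 0.56 (FDR = 0.0183) and that of LY6E 1.21 ± 0.25 (FDR = 0.00128), and WFIKKN2 was not called (-1.79, FDR = 0.314). Of 8 extracellular matrix genes 2 were called, COL1A1 with -1.01 ± 0.22 (FDR = 0.00207) and COL1A2 with -0.92 ± 0.19 (FDR = 0.00113), and the median of the list was -0.55. Of 60 electron transport chain genes 0 were called. VCAM1 (0.79 ± 0.21, FDR = 0.0325), SCUBE1 (-2.27 ± 0.57, FDR = 0.0190) and SLC7A10 (-1.66 ± 0.48, FDR = 0.0777) were also called in it. So were MX2 (-5.32 ± 1.08, FDR = 0.000981), IDO1 (-2.59 ± 0.67, FDR = 0.0253), OAS1X (-2.54 ± 0.68, FDR = 0.0339) and ZBP1 (-2.39 ± 0.70, FDR = 0.0918), all lower in HP. MX2, OAS1X and ZBP1 were named after their values were seen. Interferon induces both IDO1 and LY6E, and LY6E was higher in HP. Over all 24 heifers IDO1 was not called (-0.86 ± 0.87, FDR = 0.9998). Its protein difference there differed between energy levels by the likelihood ratio test of the interaction (HE minus LE -4.75). The fit without the 9 heifers held 6 LPHE but 3 LPLE heifers. In all, 21 of the called genes had a symbol. What part muscle tissue had in the values of all 24 heifers, or in the calls made without the 9, was not tested.

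The other markers lay in overlapping ranges. The fibroblast genes PI16 and DCN summed to 2203 to 6448 CPM in HP and 2058 to 6495 CPM in LP heifers (exact permutation test of the log2 sums, p = 0.449). The 5 smooth muscle and pericyte markers summed to 159 to 6836 CPM and 90.7 to 3254 CPM (exact permutation p = 0.947), and the 5 nerve and Schwann cell markers to 99.5 to 490 CPM and 116 to 601 CPM (exact permutation p = 0.621). SELE, the endothelial marker, ran from 0.501 to 49.6 CPM and from 0.339 to 33.2 CPM (exact permutation p = 0.448). At high energy all 6 HPHE heifers lay below all 6 LPHE heifers in SELE, and 6 genes (0.045%) had no overlap between these diets. CCL21, a chemokine of lymphatic tissue, ran from 1.62 to 43.4 CPM and from 1.93 to 74.95 CPM (exact permutation p = 0.216). The adipocyte genes summed to 1238 to 3269 CPM in HP and 858 to 3275 CPM in LP heifers (exact permutation p = 0.169).

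Heifers fed the same diet differed more from each other under LP than under HP in most genes. The SD of log2(CPM + 0.5) within diets had a median over genes of 0.253 in HP and 0.336 in LP heifers, and it was larger in LP for 9821 of 13339 genes (73.6%). A ratio over 2 was found for 1568 genes with LP larger and for 148 genes with HP larger. Within energy levels, LPHE heifers spread more than HPHE heifers in 74.96% of the genes and LPLE heifers more than HPLE heifers in 64.3%, with median SDs of 0.331, 0.235, 0.317 and 0.251. Genes are not independent, and a difference in 1 heifer enters many of them. With 1 heifer left out, the share ranged from 67.3%, without LPHE24, to 78.8%, without HPLE13, and it was 82.3% without the 9 heifers with muscle markers. Among the 12859 genes that reached 2 CPM in 3 or more heifers of HP and also of LP, the share was 74.2%.

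Over heifers, the difference in spread was not significant. Residuals came from the additive model of energy level, genetic group and protein level. Unlike the SD within diets, they hold any difference of the protein effect between energy levels. They were fitted once and kept while labels were exchanged, so the p-values are approximate. The root mean square of a heifer's residuals over all genes was 0.364 ± 0.0881 in HP and 0.391 ± 0.0810 in LP (SD, n = 12), and ranged from 0.251 to 0.546 and from 0.278 to 0.542 (permutation test, p = 0.436). The median absolute residual gave a permutation p of 0.139. The biological coefficient of variation that edgeR estimated from each group alone was 0.293 in HP and 0.312 in LP.

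CRYM had an SD of 0.268 in HP and 1.71 in LP heifers. DSC1, a desmosomal cadherin of the epidermis, lay at 0.274 CPM or less in all HP heifers and reached 19.9 CPM in LP heifers. No HP heifer reached 2 CPM for either gene, so the filter on low values made both lean towards a larger spread in LP, and their ratios are no result. Among the genes that passed the filter in both groups, DTX1, a regulator of Notch signalling, was the second by the ratio of its spread and ranged from 35.3 to 42.7 CPM in HP and from 18.5 to 61.0 CPM in LP heifers. CDO1, the cysteine dioxygenase, ranged from 5.84 to 15.2 CPM in HP and from 1.97 to 71.3 CPM in LP heifers. Over all 13339 tested genes PRLR ranked 4236 with a ratio of 1.54, and no HP heifer reached 2 CPM for it either. Spread was larger in LP for 7 of 8 extracellular matrix genes and for 36 of 60 electron transport chain genes, for 6 of 14 genes of fatty acid and triacylglycerol synthesis, and for 0 of the 7 skeletal muscle markers.

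**Figure D5:**
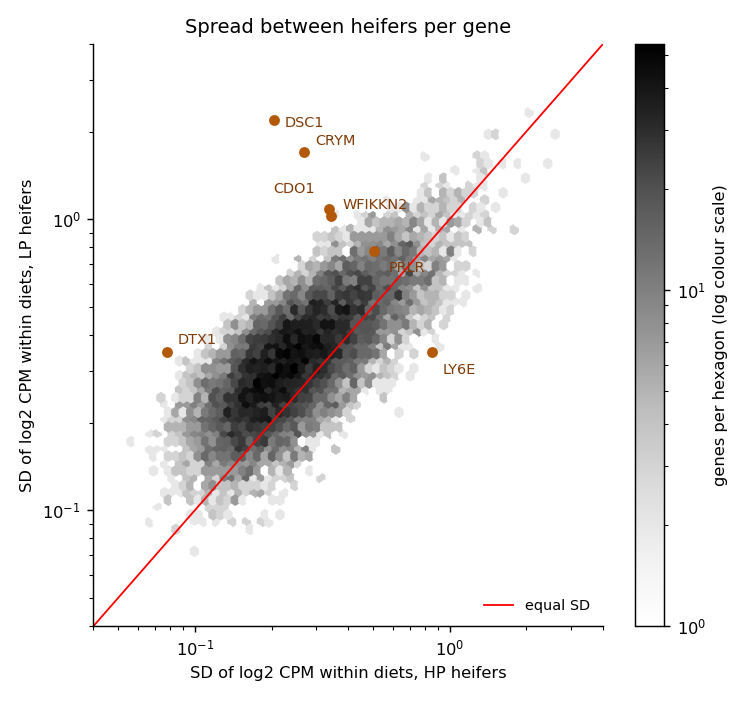
SD of log2(CPM + 0.5) between heifers within diets for each tested gene, in HP heifers (horizontal log axis) and LP heifers (vertical log axis), with darker hexagons for more genes and a red line at equal SD. Most genes (73.6%) lie above the line, with CRYM and DSC1 far above it, PRLR inside the cloud and LY6E below the line. CRYM, DSC1, PRLR and WFIKKN2 passed the filter on low values only through LP heifers.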

How the data were processed

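Adipose RNA of 24 heifers at 12 months, and of the same heifers in month 7 of gestation, was sequenced from poly(A) libraries. The deposited values are raw counts per Ensembl gene. Per the study's methods and its submitted processing notes, the authors trimmed reads with Cutadapt (1.3), aligned them to UMD3.1 with Tophat (2.0.12) and counted them with HTSeq, without normalization. The annotation release and the strand setting are not given in the sources used here. Rows that name no gene, a median of 43.1% of all counted reads, were left out of library sizes and tests. Groups were taken from the sample labels. The self-test of the scripts used simulated counts.

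Genes that reached 2 CPM in 3 or more of the 24 samples were kept. TMM factors, trended and tagwise dispersions (classic estimates with a fixed prior weight) and likelihood ratio tests were computed with edgeR (4.0.16, R 4.3.3) in a model of energy level, genetic group and protein level, and Benjamini-Hochberg adjusted to give the FDR, called under 0.1. The study's methods name glmFit with tagwise dispersions, not how these were estimated, and the classic estimates were chosen here after a fit with an estimated prior weight, which called 2 genes, had been seen. The SE was implied by the test statistic (log2 fold change over the root of the statistic), and 95% intervals are 1.96 SE to each side. The prior of edgeR keeps fold changes of genes near 0 counts finite, so these depend on it. Permutation tests exchanged protein labels within the 4 strata of energy and genetic group (160000 arrangements) on log2(CPM + 0.5), two-sided. Alternatives used the quasi-likelihood F test, DESeq2 (1.42.0), limma voom (3.58.1), other scalings, filters, covariates and dispersions, subsets of heifers and each heifer left out.

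Named genes are the called ones, the next by p up to 20 with a symbol, the first 5 by the quasi-likelihood F test, CRYM, DSP, ACTA1 and PRLR, the extremes and called members of each list, and cell type markers. The comparison, lists and markers were chosen with earlier results of these data known. MX2, OAS1X and ZBP1 were named after their values were seen. Symbols came from the gene tables of the study. The macrophage, blood and mesothelium marker lists and the ribosomal protein list had no identifier and were not used. Heifers were separate animals, and those of a diet differed by far more than counting noise (lowest chi-square per degree of freedom 38.3 over 60 pairs). Sequencing lane is not in the labels, so its effect was not tested.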

Additional observations from a re-analysis of the deposited data

Results flagged for a closer look

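In the HPLE diet 1 heifer, HPLE13, stood apart in the root mean square of its residuals over all genes, 0.546, with a gap to the next heifer of 0.628 of the range of the 6. It was the only such value in 44 groups of 6 examined, and chance flags about 1 in 20 groups. Without HPLE13, 15 genes were called for protein.

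The protein difference differed between energy levels by the test of the interaction for 14 genes (0.105%), of which 4 belong to the lists and markers used here; the quasi-likelihood F test called 0, with 531 at an unadjusted p under 0.05. The skeletal muscle genes ACTA1 (difference HE minus LE 7.80 ± 1.97, SE, edgeR FDR = 0.0893) and MYLPF (7.45 ± 1.90, FDR = 0.0893) are themselves among the markers: in LPHE heifers both lay at 0.162 CPM or less, and MYLPF reached 13.9 CPM in HPHE and 8.48 CPM in LPLE heifers. IDO1, which degrades tryptophan and which interferon induces, had a difference of -4.75 ± 1.14 (FDR = 0.0464), with 17.6 to 37.7 CPM in HPHE and 25.6 to 967 CPM in LPHE heifers, against 12.7 to 431 CPM in HPLE and 10.9 to 127 CPM in LPLE heifers. SELE, an adhesion molecule of activated endothelium, had a difference of -4.51 ± 0.94 (FDR = 0.00787), with 0.501 to 4.10 CPM in HPHE and 4.69 to 33.2 CPM in LPHE heifers, which did not overlap (0.045% of the genes tested had no overlap between these diets), and with 2.87 to 49.6 CPM in HPLE and 0.339 to 13.02 CPM in LPLE heifers.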

How the results depend on the processing

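The 7 calls for protein at 12 months became 0 with the quasi-likelihood F test, its robust form, limma voom or the exact permutation test, whose smallest p gives an FDR of 0.167 to a lone gene. They became 0 with at least 10 counts in every sample or 2 CPM in at least 12 samples, where CRYM, PRLR and WFIKKN2 were not tested and LY6E had an FDR of 0.102 and 0.103. There were 13 with no filter, 4 without genetic group, 2 without energy level, 2 with an estimated prior weight of the dispersions, 4 in a fit of all 48 samples (PRLR not among them), 3 at an FDR of 0.05, 26 in HMY and 0 in LCM heifers alone, and 95 without the 9 muscle-marked heifers. The estimated prior weight, the permutation of every gene and the muscle-marked heifers were chosen after the data were seen. With 1 heifer left out the count ranged from 2 to 15: it was 2 without HPLE7, LPHE16 or LPLE18, 3 without HPHE11 or HPHE19, 4 without LPHE5, HPLE9, LPLE10 or HPLE17, 14 without HPHE15 and 15 without HPLE13. CRYM and PRLR were called in all 24 of these fits. The interaction fell from 14 to 0 calls with the quasi-likelihood F test and ranged from 5 to 54 with 1 heifer left out, with 5 without HPLE1, 6 without LPHE24, 8 without HPLE13 and 54 without LPLE18. In gestation the 11 calls became 1 with the quasi-likelihood F test and 3 with DESeq2. The causes were not tested. Of the values of single genes and list medians over these settings, 3094 kept their side of the threshold and either their sign or a value within 1 SE (list medians, within 0.2), 127 were no longer past it, 35 were newly past it, 55 that were not called changed sign by 1 SE or more, and none turned a called direction. No paired analysis was possible because HP and LP heifers were different animals that share no number.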
